A study of Mus musculus with 15 samples.

Results

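The 10 genes described here encode the mu, pi, omega, theta and microsomal glutathione transferases *Gstm1*, *Gstm2*, *Gstm4*, *Gstm5*, *Gstp1*, *Gsto1*, *Gstt1*, *Mgst1*, *Mgst2* and *Mgst3*. They were taken by gene symbol from a table of 35880 genes measured by RNA sequencing in 5 mouse Lewis lung carcinoma (LL2) lines. All 10 were present in the table, and all 10 were among the 14652 genes tested.

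Glutathione transferases join the tripeptide glutathione to reactive electrophiles, which makes them water-soluble and ready for export. The mu, pi, omega and theta classes are cytosolic enzymes, whereas the microsomal enzymes are small membrane proteins of the MAPEG family that also reduce lipid peroxides or take part in eicosanoid synthesis. Many genes of this pathway are known targets of the transcription factor NRF2, which binds antioxidant response elements and is held inactive by the ubiquitin ligase adaptor KEAP1.

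LL2 WT was the parental line, a luciferase-expressing mouse lung tumor line without a KO. *KEAP1* KO #1, #2 and #3 and *NRF2* KO had been derived from it with CRISPR plasmids that carried a guide RNA against *Keap1* or *Nfe2l2*, Cas9 and GFP, and each was grown from 1 sorted GFP-positive cell. Each KO line is thus 1 clone, and the *NRF2* KO genotype is represented by 1 clone only, so that a difference of a line cannot be told apart from a difference of its founding cell. The line LL2 WT was not cloned in this way. All lines were cultured in the same complete medium with serum and no treatment, and 3 biologic replicates were sequenced for each of the 5 lines, 15 samples in all.

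The values are CPM, reads of a gene scaled by the authors to the same total in every sample, so that the depth of each sample is unknown and the values hold no read counts. A level of 0.1 CPM, about 3 reads at the average depth stated in the methods, was taken as the floor. The labels were checked with *Keap1*, whose mean CPM was 23.0 for LL2 WT, 11.8, 5.53 and 5.58 for *KEAP1* KO #1, #2 and #3 and 22.7 for *NRF2* KO, and which was called lower in #2 and #3 but not in #1 (log2 fold change −0.95). *Nqo1*, a well-known NRF2 target, had mean CPM of 30.3 for LL2 WT, 276 to 488 for the *KEAP1* KO lines and 9.82 for *NRF2* KO. *Nfe2l2* itself had means of 186 CPM for LL2 WT and 96.4 to 123 CPM for the KO lines, with *NRF2* KO (119 CPM) inside the range of the *KEAP1* KO lines. Its limma adjusted p was below 0.05 in each KO line, but the fold required for a call was reached in none of them.

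Markers of lung epithelium were partly missing in this tumor line, since *Nkx2-1*, *Sftpa1*, *Scgb1a1*, *Epcam* and *Cdh1*, 5 of 10 markers, lay under the floor in all 15 samples. The sum of the 10 markers came mostly from the keratin genes *Krt8* and *Krt18*. It was 592 to 667 CPM for LL2 WT, 300 to 440 CPM for *KEAP1* KO #1, 538 to 639 CPM for the other *KEAP1* KO lines and 386 to 548 CPM for *NRF2* KO. *Krt18* averaged 534 CPM for LL2 WT, 296, 406 and 439 CPM for *KEAP1* KO #1, #2 and #3 and 372 CPM for *NRF2* KO. *Krt8* averaged 102 CPM for LL2 WT, 75.3, 172 and 137 CPM for *KEAP1* KO #1, #2 and #3 and 92 CPM for *NRF2* KO. Neither keratin gene was called against LL2 WT, whereas *Sftpb* was called higher in the *KEAP1* KO lines at a mean of 0.338 to 0.682 CPM. Among leukocyte markers, *Adgre1* and *Cd3e* lay under the floor in all samples and *Ptprc* averaged at most 0.124 CPM for any line. *Cd68* averaged 2.85 CPM for LL2 WT, 6.49, 13.8 and 22.0 CPM for *KEAP1* KO #1, #2 and #3 and 2.47 CPM for *NRF2* KO, and was called higher in *KEAP1* KO #2 and #3. Of 3 endothelial markers *Kdr* was under the floor throughout, the sum was at most 7.48 CPM, and *Cdh5* was called higher in *KEAP1* KO #2 and #3 (means 0.819 and 1.25 CPM). The 5 mesenchymal markers summed to 3764 to 6009 CPM for LL2 WT, 1542 to 2053 CPM for the *KEAP1* KO lines and 3311 to 4710 CPM for *NRF2* KO, with *Vim* and *Col3a1* called lower in every *KEAP1* KO line. Some of these markers, such as *Vim* and *Col3a1*, thus differed from LL2 WT in every *KEAP1* KO line. Others did not: the epithelial sums of #2 and #3 overlapped LL2 WT, and *Cd68* and *Cdh5* were not called in #1. The part of these markers in the differences below was not tested. In bulk RNA, fewer cells of a kind and less RNA per cell cannot be told apart.

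The promoters of 4 of the 10 genes are shown because the genes behaved differently in the lines. *Mgst1* was the gene with the largest differences, and *Gstm1* rose and fell with the 2 genotypes. *Gstp1* was lower in *KEAP1* KO, with a lower mean in *NRF2* KO as well. *Gstm5*, of the same gene cluster as *Gstm1*, was called in no line. Each sequence is the 250 bases before a RefSeq transcript start in GRCm38.p6, read 5′ to 3′ on the strand of the gene, and capitals mark matches to the core of the antioxidant response element, TGACNNNGC or TGAGNNNGC, searched on both strands. The windows are chr6:138140277-138140526 (plus strand) for *Mgst1*, chr3:108017974-108018223 (minus strand) for *Gstm1*, chr19:4037913-4038162 (minus strand) for *Gstp1* and chr3:107895604-107895853 (plus strand) for *Gstm5*.
Mgst1: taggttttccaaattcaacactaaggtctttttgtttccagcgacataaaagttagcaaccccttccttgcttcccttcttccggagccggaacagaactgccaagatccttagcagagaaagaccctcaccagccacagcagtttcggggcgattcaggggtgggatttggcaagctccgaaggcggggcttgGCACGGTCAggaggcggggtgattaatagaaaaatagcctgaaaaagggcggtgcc
Gstm1: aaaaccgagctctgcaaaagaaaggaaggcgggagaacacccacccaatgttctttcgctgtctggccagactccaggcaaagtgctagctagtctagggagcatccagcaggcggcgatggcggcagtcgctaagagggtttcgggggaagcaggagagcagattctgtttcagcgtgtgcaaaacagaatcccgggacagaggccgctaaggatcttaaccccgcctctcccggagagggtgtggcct
Gstp1: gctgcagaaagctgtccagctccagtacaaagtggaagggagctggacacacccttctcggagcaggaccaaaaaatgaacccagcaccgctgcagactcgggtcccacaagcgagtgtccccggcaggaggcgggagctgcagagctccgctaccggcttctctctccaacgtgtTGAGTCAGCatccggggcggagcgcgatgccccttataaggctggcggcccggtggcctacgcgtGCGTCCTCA
Gstm5: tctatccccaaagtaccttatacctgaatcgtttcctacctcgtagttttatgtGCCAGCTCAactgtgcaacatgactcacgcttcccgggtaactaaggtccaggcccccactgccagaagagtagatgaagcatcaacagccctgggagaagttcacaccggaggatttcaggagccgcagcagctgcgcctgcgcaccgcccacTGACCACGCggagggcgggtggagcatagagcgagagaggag
The *Mgst1* promoter held 1 core match, on the minus strand 56 to 48 bases before the start, and the window of its second annotated start held 0. The *Gstm1* promoter held 0, at either of its 2 annotated starts. *Gstp1* held 2, at 74 to 66 and at 9 to 1 bases before the start, and the first of them overlapped an AP-1 motif (TGANTCA) at 74 to 68. *Gstm5* held 2, at 196 to 188 and at 42 to 34, and an AP-1 motif at 176 to 170. *Gstt1* held 1 core match (89 to 81) and *Mgst2* 1 AP-1 motif (52 to 46), and the windows of *Gstm2*, *Gstm4*, *Gsto1* and *Mgst3* held neither. The core was found in 23.0% of 32851 mouse promoters of this length and AP-1 in 6.75%, so that a match is common and only describes the letters.

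The *KEAP1* KO lines had higher transcripts of a few of these genes, led by *Mgst1* and *Gstm1*, and lower *Gstp1*. The mean of *Gstp1* was also below LL2 WT in *NRF2* KO. All 14652 genes were fitted with limma as log2(CPM + 0.1). Called means here that the adjusted p (Benjamini-Hochberg) was below 0.05 and the log2 fold change beyond 1 in either direction. In *KEAP1* KO #1, 2 of the 10 genes were called higher (*Gstm1* and *Mgst1*), where 4.55% of all genes were, and 1 was called lower (*Gstp1*), where 3.99% were. In *KEAP1* KO #2, *Gstm1* and *Mgst1* were called higher (2 of 10, against 5.94% of all genes) and 0 were called lower (7.75% of all genes). *KEAP1* KO #3 had 3 called higher, *Gstm1*, *Mgst1* and *Gsto1*, against 6.09%, and 0 called lower, against 7.34%. By adjusted p alone, the same 5 genes, *Mgst1*, *Mgst3*, *Gstm1*, *Gstp1* and *Gsto1*, passed in each *KEAP1* KO line, where 23.2%, 31.9% and 31.4% of all genes did. At an unadjusted p below 0.05 the numbers were 5, 7 and 7 of 10, in either direction. The share of all genes at this unadjusted p was not computed, here or in the comparisons below, so these counts have no background. All 4 comparisons use the same 3 LL2 WT samples.

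*NRF2* KO went with lower transcripts of 4 genes, *Mgst1*, *Gstm1*, *Mgst2* and *Gstm2*, which were called lower in *NRF2* KO, and 0 of 10 were called higher (6 of 10 had an unadjusted p below 0.05 in either direction). In this line 0.375% of all genes were called lower, 0.0887% were called higher and 0.621% passed by adjusted p alone. The median log2 fold change of the 10 genes was −1.04 in *NRF2* KO, beside 0.04 over all genes, and 0.25, 0.61 and 0.53 in *KEAP1* KO #1, #2 and #3, beside 0.11, 0.03 and 0.02. Rescaling by median ratios moved the median of all genes in *KEAP1* KO #1 to 0.01, so that values of that line are about 0.1 higher under the deposited scale. The count of 4 rested on single libraries: with only LL2 WT and *NRF2* KO in the model it was 1, *Mgst1*, and it was also 1 when replicate 1 or 3 of LL2 WT, or replicate 1 or 2 of *NRF2* KO, was left out. In *KEAP1* KO #2 the count of genes called higher was 4 without LL2 WT replicate 1 and 1 without *KEAP1* KO #2 replicate 3.

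**Figure D1:**
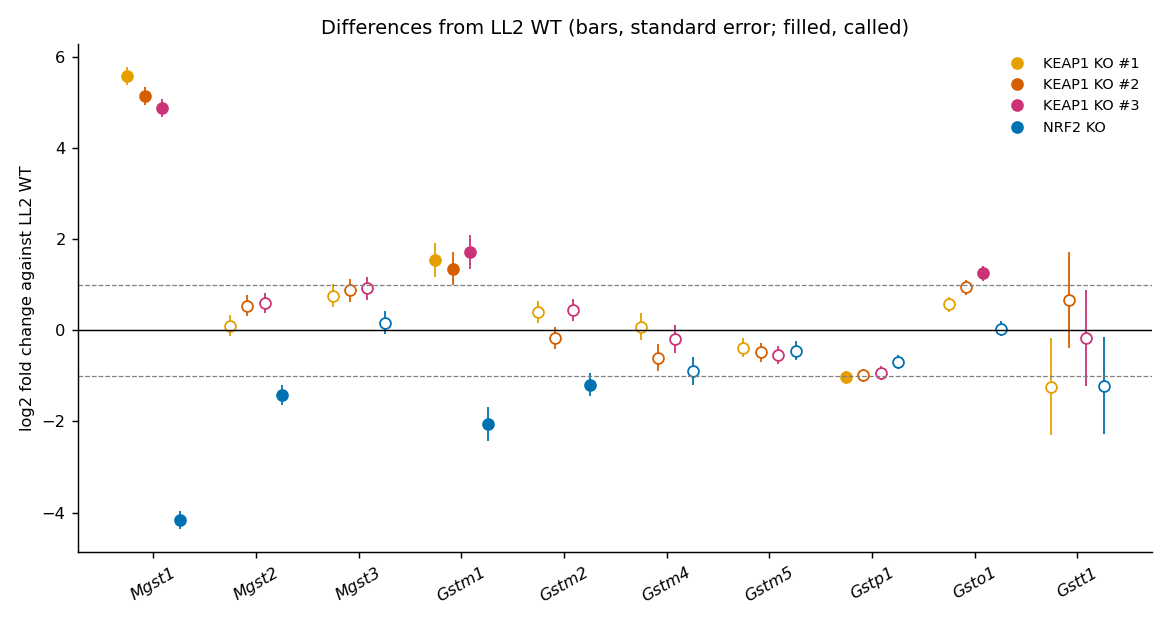
Log2 fold change of each of the 10 genes against LL2 WT, on the log2(CPM + 0.1) scale (vertical axis), by gene (horizontal axis) and KO line (color). Bars are the standard error of the model with 3 samples per line, filled points are called, and dashed lines mark a log2 fold change of 1 in either direction. *Mgst1* stands farthest from 0 on both sides, from 5.58 in *KEAP1* KO #1 to −4.17 in *NRF2* KO.

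*Mgst1* encodes a membrane-bound transferase of the endoplasmic reticulum and mitochondria that also reduces lipid hydroperoxides (chromosome 6, 138140316 to 138156755, plus strand, GRCm38). LL2 WT held 5.09, 4.82 and 7.11 CPM in replicates 1, 2 and 3. The same transcript reached 297, 254 and 267 CPM for *KEAP1* KO #1, 198, 212 and 195 CPM for *KEAP1* KO #2 and 163, 165 and 176 CPM for *KEAP1* KO #3. *NRF2* KO held 0.115, 0.282 and 0.286 CPM, close to the floor. The 3 genotypes did not overlap in any sample, and the *KEAP1* KO lines did not overlap each other. Mean CPM was 48.1-fold higher in *KEAP1* KO #1, 35.5-fold in *KEAP1* KO #2 and 29.7-fold in *KEAP1* KO #3 than in LL2 WT, and the fitted log2 fold changes reached 5.58, 5.15 and 4.89, each with a standard error of 0.20 and an adjusted p of at most 3.55e-09. In *NRF2* KO the mean was 24.9-fold lower and the log2 fold change was −4.17 (standard error 0.20, adjusted p = 1.70e-07). Because *NRF2* KO lay near the floor, this value moved with the pseudocount, to −2.43 with 1 CPM and −4.66 with 0.01 CPM. *Mgst1* was called in all 4 lines under each of the 18 alternatives run for each line.

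*Mgst2*, whose product can conjugate glutathione to leukotriene A4, differed in *NRF2* KO and not detectably in *KEAP1* KO #1 (chromosome 3, 51660360 to 51682677, plus strand). Its levels were 45.0, 37.0 and 60.0 CPM for LL2 WT and 16.7, 12.6 and 24.9 CPM for *NRF2* KO, and these groups did not overlap. *KEAP1* KO #1 had 50.1, 42.9 and 57.6 CPM, all within the range of LL2 WT. *KEAP1* KO #2 had 66.8, 64.0 and 72.8 CPM and *KEAP1* KO #3 had 62.9, 68.2 and 81.2 CPM, all above the LL2 WT range. In *NRF2* KO the log2 fold change was −1.41 (standard error 0.22, adjusted p = 0.0120). For *KEAP1* KO #1, #2 and #3 it was 0.10, 0.55 and 0.60, with adjusted p of 0.781, 0.0791 and 0.0575. The call in *NRF2* KO held in 13 of 18 alternatives, with an adjusted p up to 0.393 with only the 2 lines in the model, and it was also lost without LL2 WT replicate 1 or 3 or *NRF2* KO replicate 1 or 2.

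*Mgst3* encodes another MAPEG enzyme with glutathione peroxidase activity (chromosome 1, 167371966 to 167393841, minus strand). LL2 WT had 93.8, 102 and 43.2 CPM, so that its replicate 3 lay far below the others. *KEAP1* KO #1 had 141, 132 and 110 CPM, *KEAP1* KO #2 138, 136 and 138 CPM, and *KEAP1* KO #3 134, 159 and 133 CPM, and all 9 samples lay above LL2 WT. *NRF2* KO had 80.1, 107 and 69.5 CPM and overlapped LL2 WT. The log2 fold changes of *Mgst3* were 0.77, 0.88 and 0.92 for *KEAP1* KO #1, #2 and #3 (standard error 0.26). Their adjusted p of 0.0484, 0.0201 and 0.0159 passed, and the fold required for a call was not reached. With LL2 WT replicate 3 left out these values were 0.37 (adjusted p = 0.129), 0.49 (0.0392) and 0.53 (0.0261). With replicate 1 (1.05 and 1.09) or replicate 2 (1.11 and 1.15) of LL2 WT left out, *Mgst3* was called higher in *KEAP1* KO #2 and #3. Its limma adjusted p was below 0.05 in 8, 15 and 16 of 18 alternatives for *KEAP1* KO #1, #2 and #3. In #1 it rose to as much as 0.178.

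**Figure D2:**
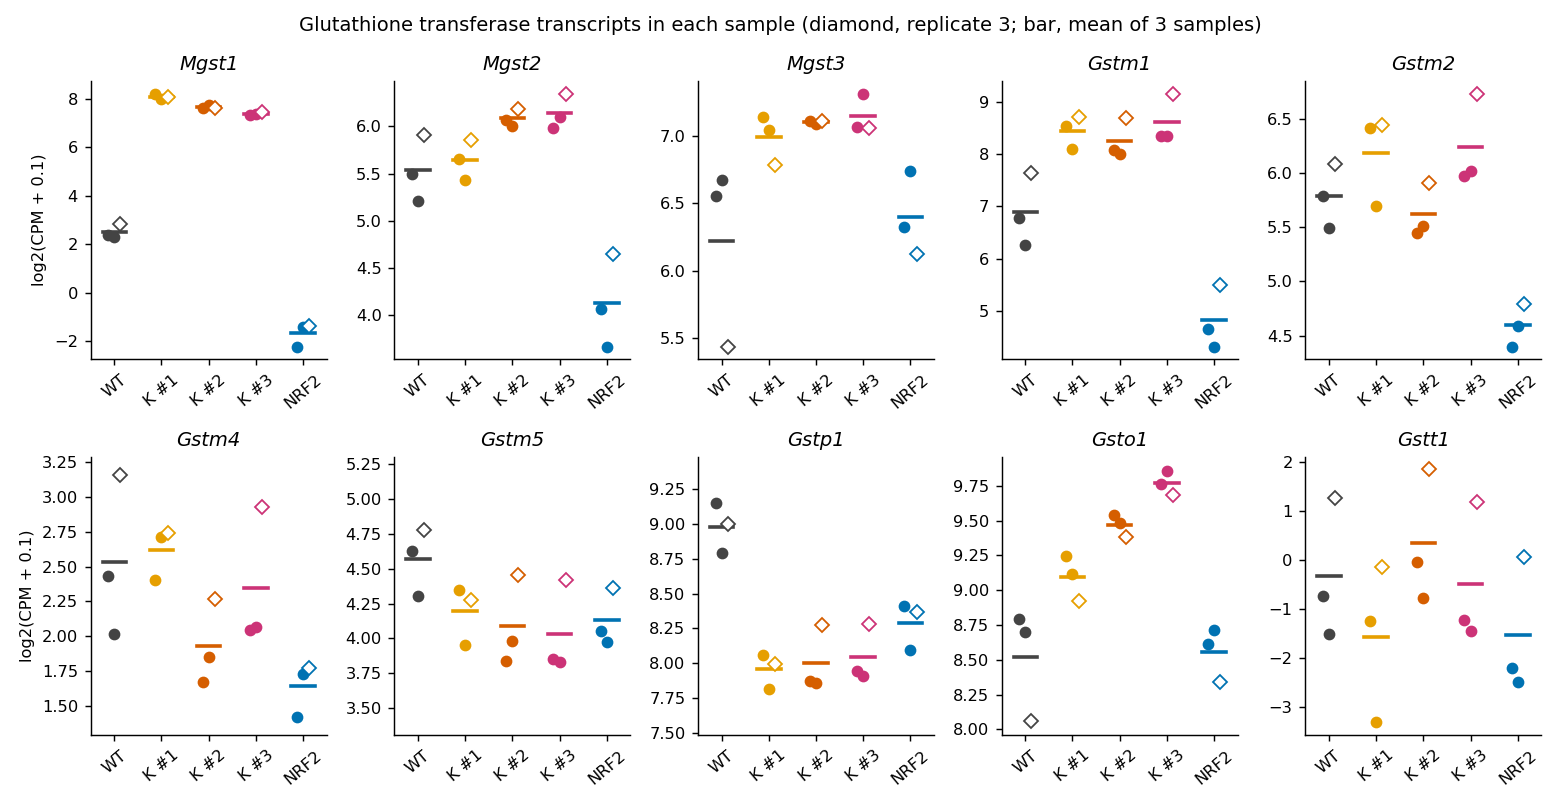
Level of the 10 transcripts in each of the 15 samples as log2(CPM + 0.1) (vertical axes, with a scale of their own for each gene) in LL2 WT (WT), *KEAP1* KO #1 to #3 (K #1 to K #3) and *NRF2* KO (NRF2). Circles are replicates 1 and 2, diamonds are replicate 3 and bars are means of 3 samples. Replicate 3 is the highest sample in all 5 lines for *Gstm1*, *Gstm2*, *Gstm4*, *Gstt1* and *Mgst2* and the lowest in all 5 for *Gsto1*.

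The 4 mu-class genes lie within 149.1 kb of chromosome 3, and the differences along this stretch were unequal. *Gstm1*, a cytosolic enzyme that conjugates epoxides and lipid-derived aldehydes, was the mu-class gene with a call in every KO line (108012255 to 108017973, minus strand). It measured 110, 76.5 and 200 CPM for LL2 WT, 370, 274 and 419 CPM for *KEAP1* KO #1, 268, 257 and 411 CPM for *KEAP1* KO #2, 326, 325 and 568 CPM for *KEAP1* KO #3, and 25.3, 19.9 and 45.4 CPM for *NRF2* KO. All *KEAP1* KO samples lay above and all *NRF2* KO samples below the LL2 WT range, although replicate 3 was the highest sample of every line, by 1.3 to 2.15 times the mean of the other 2. On the log2 scale *KEAP1* KO #1, #2 and #3 were higher than LL2 WT by 1.55, 1.36 and 1.72 (standard error 0.37), with adjusted p of 0.00956, 0.0141 and 0.00354. The log2 fold change in *NRF2* KO was −2.06 (adjusted p = 0.0226). The calls in *KEAP1* KO #1 and #3 held in 18 of 18 alternatives. In *KEAP1* KO #2 the adjusted p was 0.0504 without LL2 WT replicate 2 and 0.0531 without *KEAP1* KO #2 replicate 3, where the other 16 alternatives went down to 1.95e-05. In *NRF2* KO 13 of 18 alternatives called it, and the adjusted p rose to as much as 0.124 without LL2 WT replicate 1 or 3 or *NRF2* KO replicate 1 or 2 and to 0.420 with only the 2 lines in the model.

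*Gstm2*, which lies between *Gstm5* and *Gstm1* (107981702 to 107986453, minus strand), was lower in *NRF2* KO. It had 55.1, 44.8 and 67.5 CPM for LL2 WT and 21, 24.0 and 27.7 CPM for *NRF2* KO, with no overlap. The *KEAP1* KO lines overlapped LL2 WT, with 84.9, 51.8 and 86.9 CPM for #1, 43.6, 45.4 and 59.8 CPM for #2 and 62.8, 64.6 and 106 CPM for #3. The log2 fold change in *NRF2* KO was −1.19 (standard error 0.24, adjusted p = 0.0490), next to the threshold, and it was called in 5 of 18 alternatives, with adjusted p from 0.00148 to 0.205 and the same direction in all 18. Leaving out LL2 WT replicate 1 or 3 or any of the 3 *NRF2* KO samples ended the call, with adjusted p from 0.0769 to 0.191.

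Neither *Gstm4* nor *Gstm5* was called in any line. *Gstm4* (108040408 to 108044894, minus strand) was low, with 3.94 to 8.81 CPM for LL2 WT, 3.09 to 7.49 CPM across the *KEAP1* KO lines and 2.58 to 3.31 CPM for *NRF2* KO. The *NRF2* KO samples lay below the LL2 WT range, and their log2 fold change of −0.89 did not pass (adjusted p = 0.266). *Gstm5* (107895821 to 107898686, plus strand) had 19.7 to 27.4 CPM for LL2 WT, 14.1 to 21.8 CPM across the *KEAP1* KO lines and 15.6 to 20.5 CPM for *NRF2* KO. Its log2 fold changes lay between −0.54 and −0.38 in all 4 KO lines, with adjusted p from 0.0615 to 0.450, and each line overlapped LL2 WT. *Gstm5* is the plus-strand gene of the 4 and begins 85.9 kb before the low-coordinate end of *Gstm2*.

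**Figure D3:**
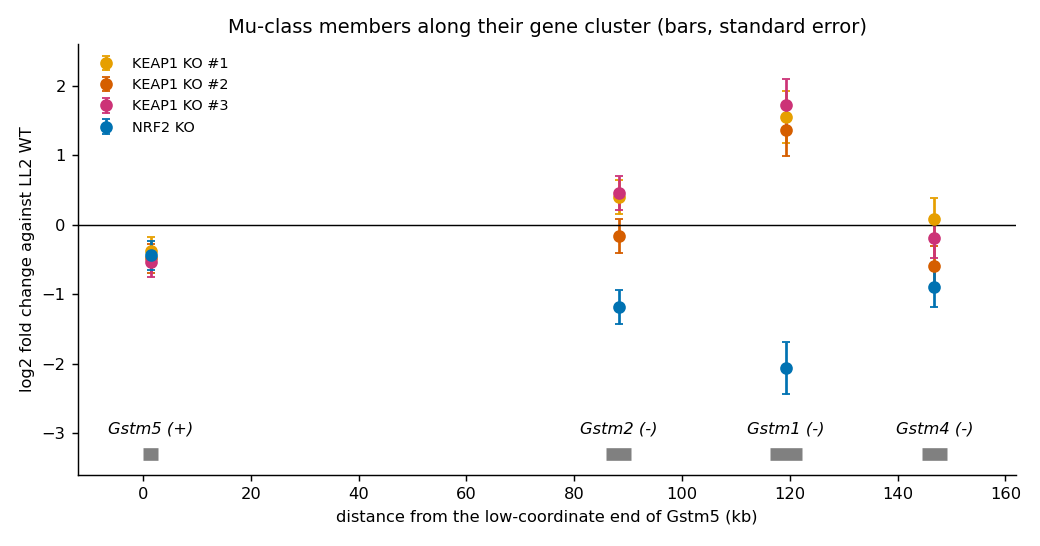
Log2 fold change against LL2 WT (vertical axis, bars are the standard error) of the 4 mu-class genes, placed by their distance in kb from the low-coordinate end of *Gstm5* (horizontal axis), with the 4 KO lines in color and gene bodies as grey bars with their strand. The separation between *KEAP1* KO and *NRF2* KO is widest at *Gstm1*, between 1.36 and −2.06, and at *Gstm5* all 4 lines lie between −0.54 and −0.38.

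*Gstp1* encodes the pi-class enzyme (chromosome 19, 4035407 to 4037985, minus strand). It was lower than LL2 WT in every KO line and passed by adjusted p only in the *KEAP1* KO lines. It had 569, 443 and 511 CPM for LL2 WT. All 12 KO samples were below this range, with 267, 225 and 255 CPM for *KEAP1* KO #1, 234, 232 and 309 CPM for *KEAP1* KO #2, 246, 240 and 311 CPM for *KEAP1* KO #3 and 340, 273 and 330 CPM for *NRF2* KO. The log2 fold change was −1.03 in *KEAP1* KO #1 (standard error 0.15, adjusted p = 0.000325), −0.98 in #2 (0.000251) and −0.94 in #3 (0.000343), so that the lines fell on both sides of the fold threshold of 1. Differences between the clones were 0.04 to 0.09, with a standard error of 0.15. Without LL2 WT replicate 1 (−0.94) or *KEAP1* KO #1 replicate 2 (−0.95) *KEAP1* KO #1 was not called, whereas #2 and #3 were called without LL2 WT replicate 2 (−1.08 and −1.03) or without their own replicate 3 (−1.12 and −1.06). *NRF2* KO had a log2 fold change of −0.69 with an adjusted p of 0.0568, which ranged from 0.00496 to 0.365 over 18 alternatives. *NRF2* KO was above *KEAP1* KO #3 by 0.25 on the log2 scale (limma adjusted p = 0.252). Samples of *KEAP1* KO #2 and #3 overlapped *NRF2* KO, and those of #1 lay below it. *Gstp1* shares 38.5% of its 31-base stretches with *Gstp2*, which averaged 4.49 CPM for LL2 WT and 0.809 to 1.04 CPM for the *KEAP1* KO lines, so that reads of the 2 genes could have been divided between them.

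*Gsto1* belongs to the omega class, whose active-site cysteine removes glutathione from proteins and reduces dehydroascorbate (chromosome 19, 47854970 to 47864790, plus strand). It had 443, 416 and 267 CPM for LL2 WT and 391, 420 and 324 CPM for *NRF2* KO, which overlapped. The *KEAP1* KO lines had 608, 554 and 484 CPM for #1 and 743, 717 and 668 CPM for #2. For #3 the values were 868, 927 and 823 CPM. No sample of these 3 lines overlapped LL2 WT or another of the 3. By limma #2 against #1 (0.37, adjusted p = 0.188) and #3 against #2 (0.30, 0.748) did not pass, whereas #3 against #1 did (0.67, 0.0188). Against LL2 WT the lines #1, #2 and #3 differed by 0.58, 0.95 and 1.25 on the log2 scale (standard error 0.17), with adjusted p of 0.0247, 0.000881 and 0.000105, and *NRF2* KO by 0.04 (0.961). *KEAP1* KO #3 was called in 18 of 18 alternatives, and *KEAP1* KO #2 was called in 2, without LL2 WT replicate 1 or 2. In *KEAP1* KO #1 the limma adjusted p was below 0.05 in 13 of 18 alternatives and rose to as much as 0.131. *Gsto1* shares no 31-base stretch with another gene.

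*Gstt1*, the theta-class enzyme that acts on small halogenated compounds, was close to the floor (chromosome 10, 75783813 to 75798584, minus strand). LL2 WT had 0.498, 0.249 and 2.29 CPM, *KEAP1* KO #1 0.319, 0 and 0.808 CPM, *KEAP1* KO #2 0.866, 0.478 and 3.49 CPM, *KEAP1* KO #3 0.329, 0.266 and 2.15 CPM, and *NRF2* KO 0.116, 0.0783 and 0.942 CPM. In every line replicate 3 exceeded the mean of the other 2, by 5.07 to 9.68 times, and all lines overlapped. Log2 fold changes from −1.24 to 0.67 had a standard error of 1.06 and adjusted p from 0.435 to 0.921, so that no line was called. The call changed where the shift of replicate 3 was modelled: with the replicate number as a block *Gstt1* was called lower in *KEAP1* KO #1 (−1.24, adjusted p = 0.0123), and likewise with replicate 3 as a batch (adjusted p = 0.0400). Both *KEAP1* KO #1 and LL2 WT held 0 to 0.498 CPM in replicates 1 and 2.

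The place of replicate 3 was shared by several genes. It was the highest of the 3 samples in all 5 lines for *Gstm1*, *Gstm2*, *Gstm4*, *Gstt1* and *Mgst2* and in 4 lines for *Gstm5*, and it was the lowest in 5 lines for *Gsto1* and in 4 for *Mgst3*. The labels give no batch for it. With replicates 1 and 2 of every line only, a choice made after seeing the data, the log2 fold changes of *Mgst1* were 5.77, 5.34, 5.02 and −4.14 and those of *Gstm1* 1.80, 1.52, 1.83 and −2.03 in *KEAP1* KO #1, #2 and #3 and *NRF2* KO, all of them called. *Gsto1* was at 0.43, 0.76 and 1.06 in the *KEAP1* KO lines and −0.08 in *NRF2* KO.

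**Figure D4:**
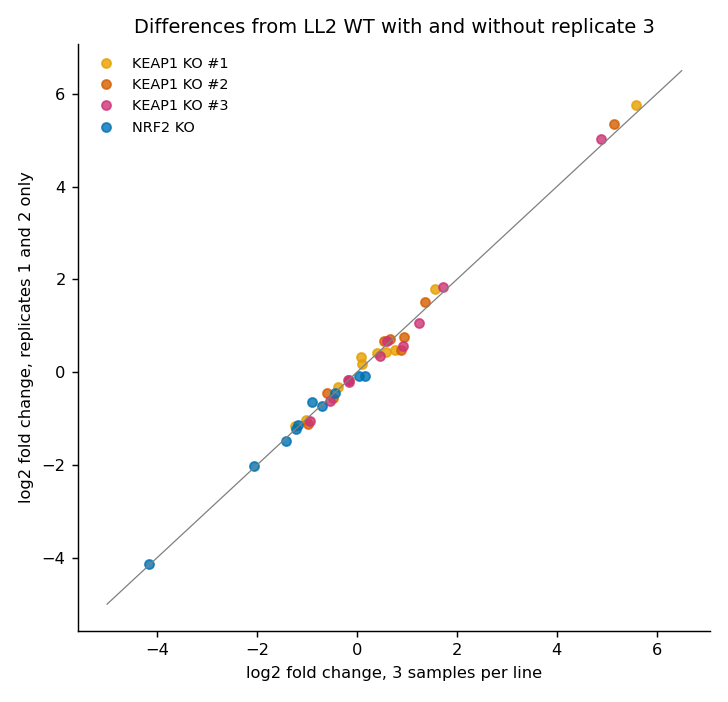
Log2 fold change against LL2 WT of the 10 genes in the 4 KO lines (color) from all 3 samples per line (horizontal axis) and from replicates 1 and 2 only (vertical axis), with the line of equality in grey. Points lie along the line, and those of *Mgst3* and *Gsto1* in *KEAP1* KO fall below it.

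Between the 3 *KEAP1* KO clones the differences were smaller, and 0 of the 10 genes were called by limma for any pair of clones. For *KEAP1* KO #2 against #1, 0 of 10 passed by adjusted p alone, with 4 at an unadjusted p below 0.05, where 4.58% of all genes were called and 11.1% passed by adjusted p. For *KEAP1* KO #3 against #2, 0 passed, with 1 at an unadjusted p below 0.05, against 0.485% and 0.764%. For *KEAP1* KO #3 against #1, 2 of 10 passed by adjusted p alone, against 12.25%, with 4.63% of all genes called. These were *Gsto1*, higher in #3 by 0.67 (standard error 0.17, adjusted p = 0.0188), and *Mgst1*, lower in #3 by a difference of −0.69 (standard error 0.20, adjusted p = 0.0383). The 2 genes thus ranked the clones in opposite order, with *Mgst1* highest in #1 and *Gsto1* highest in #3.

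The *KEAP1* KO lines were also compared with *NRF2* KO directly. *Gstm1*, *Gstm2*, *Mgst1* and *Mgst2* were called higher in *KEAP1* KO #1 and #2 than in *NRF2* KO, 4 of 10 against 3.92% and 5.26% of all genes, and these 4 with *Gsto1* in *KEAP1* KO #3, 5 of 10 against 5.53%. Mean *Mgst1* was 739- to 1198-fold higher in the *KEAP1* KO lines, but with *NRF2* KO near the floor this size is uncertain, and the log2 difference ranged from 7.11 to 10.27 over the 3 lines and their alternatives. The log2 difference of *Gstm1* was 3.42 to 3.78. For *Gstm2* the ratio was 2.05 to 3.2 and for *Mgst2* 2.78 to 3.92, and neither of these 2 was called in a *KEAP1* KO line against LL2 WT. The comparison of *Gstm2* in *KEAP1* KO #2 with *NRF2* KO, a log2 fold change of 1.03, lay under the fold threshold in 4 of 18 alternatives, with 0.88 without *KEAP1* KO #2 replicate 3 and 0.93 without *NRF2* KO replicate 1. The other 12 calls were kept in all 18.

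In the order of the lines, neighbors were set apart at an adjusted p below 0.05 for their own contrast. For *Mgst1* the order ran from *KEAP1* KO #1 through #2 and #3 to LL2 WT and *NRF2* KO. The clones were not set apart by this test, although their samples did not overlap, and #3 and LL2 WT as well as LL2 WT and *NRF2* KO were. *Gstm1* had the same breaks, with *KEAP1* KO #3, #1 and #2 not apart from each other. *Mgst2* broke only between LL2 WT and *NRF2* KO, and *Gstm2* only between *KEAP1* KO #2, and *NRF2* KO. *Gsto1* broke between *KEAP1* KO #1 and *NRF2* KO (adjusted p = 0.0451), while *NRF2* KO and LL2 WT were not apart (0.961). For *Gstp1*, *Mgst3*, *Gstm4*, *Gstm5* and *Gstt1* no pair of neighbors passed, which does not show that the lines are alike. *Gstp1* and *Mgst3* did pass in each *KEAP1* KO line against LL2 WT. Those lines were not neighbors of LL2 WT, because *NRF2* KO ranked between them.

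Levels of different genes were compared as mean CPM per kb of the median coding transcript in GENCODE M21. In LL2 WT *Gstp1* came first with 630 CPM per kb, 41.2% of the sum of the 10 genes, followed by *Gsto1* with 479 and *Gstm1* with 146, and *Mgst1* came eighth with 6.85. In the *KEAP1* KO lines *Gsto1* came first with 701, 905 and 1114 CPM per kb, and *Gstm1* second with 401, 353 and 460. There *Gstp1* took 14.9%, 14.8% and 13.2% of the sum and *Mgst1* 15.9%, 11.2% and 8.16%, where it had 0.449% in LL2 WT. In *NRF2* KO *Gsto1* (45.0%) and *Gstp1* (36.3%) made up most of the sum, and *Mgst1* came last with 0.275 CPM per kb. Transcript isoforms may differ from this median length, so these values rank the genes only roughly.

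**Figure D5:**
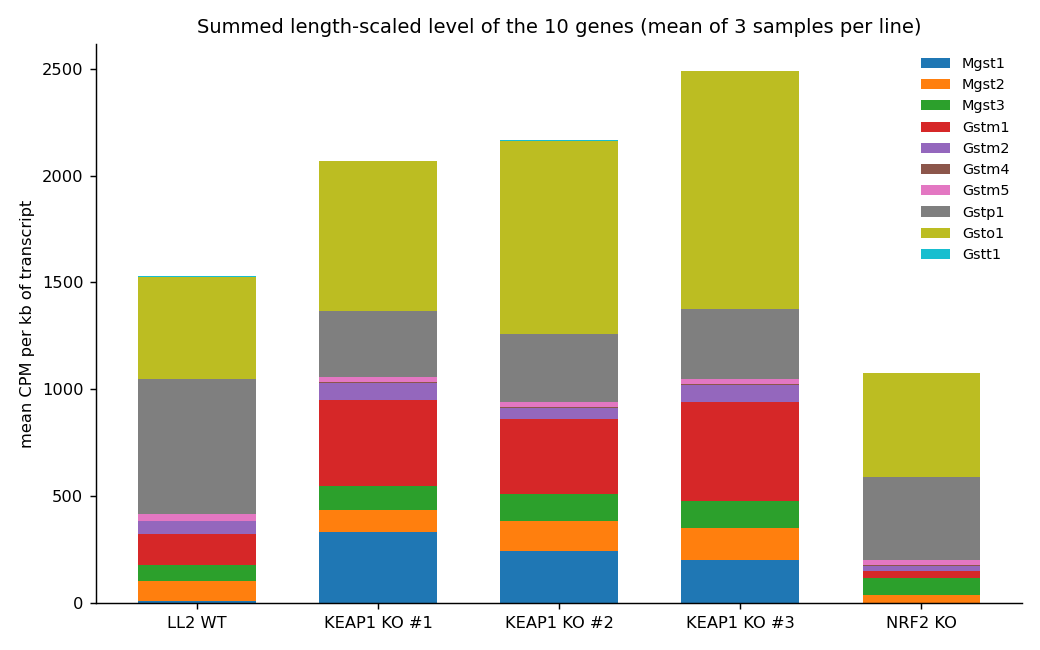
Stacked mean level of the 10 genes in CPM per kb of transcript (vertical axis, from 0) in each of the 5 lines (horizontal axis), with 1 color for each gene and the mean of 3 samples per line. *Gstp1* (630) is the largest share in LL2 WT, and *Gsto1* (701, 905 and 1114) in the *KEAP1* KO lines, where *Mgst1* becomes visible (330, 243 and 203).

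The genes whose log2(CPM + 0.1) followed each member most closely over the 15 samples were listed by Pearson r among 11667 other genes whose mean was 1 CPM or more. The samples share 5 lines, so r mainly reflects differences between lines, and no test was made. Nearest to *Mgst1* were *Lpl*, *Cbr3*, a carbonyl reductase, and *Me1*, which makes NADPH (r = 0.99 each). *Gstm1* was followed by *Lrrc75b* and *Ggt1* (0.99) and *Aox1*, an aldehyde oxidase (0.98). *Mgst2* was nearest to *Ggt1* as well (0.97), then *Fetub* (0.96) and *Creld1* (0.95), and *Gstm2* to *Cxcl15* (0.94), *Tkt*, the transketolase of the pentose phosphate pathway (0.93), and *Mtus1* (0.91). *Gsto1* was nearest to *Atp6v0c*, *Cltb* and *Dnajb6* (0.97 to 0.98), *Mgst3* to *Panx1*, *Slc25a10* and *Myo19* (0.97), *Gstp1* to *Fbxw2*, *Gm19680* and *Gch1* (0.93), *Gstm5* to *Tmem205*, *Dcaf8* and *Gm10175* (0.94 to 0.95), and *Gstm4* to *Spa17*, *Il10rb* and *Kif13a* (0.88 to 0.91). Among the members themselves, *Mgst1* with *Gstm1* (0.95), *Mgst2* with *Gstm1* (0.95) and *Mgst3* with *Gsto1* (0.90) were the closest pairs. *Gstp1* ran against *Mgst3* (−0.71) and *Gsto1* (−0.66).

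Other glutathione transferases and the steps around conjugation were described by the same calls. Of all genes tested, 4.55%, 5.94% and 6.09% were called higher and 3.99%, 7.75% and 7.34% lower in *KEAP1* KO #1, #2 and #3. In *NRF2* KO these shares were 0.0887% and 0.375%. Of the alpha class, 5 of 6 genes were tested. Those called higher were 4 in *KEAP1* KO #1, 5 in #2 and 4 in #3. *Gsta1*, *Gsta2* and *Gsta3* had LL2 WT means of 0, 0 and 0.0949 CPM, under the floor. In the *KEAP1* KO lines they averaged 111 to 478, 204 to 876 and 169 to 360 CPM. *Gsta4* averaged 31.1 CPM for LL2 WT and 465 to 754 CPM for the *KEAP1* KO lines. *Gsta5*, called in #2 only, averaged 0.382 CPM there. *Gsta4* was the alpha-class gene called lower in *NRF2* KO (log2 fold change −1.36). Of 9 further mu, pi, omega and theta genes, 6 were tested, 0 were called higher in any line and 1 was called lower, *Gstp2* in *KEAP1* KO #2 (log2 fold change −3.13, adjusted p = 0.0409). Among 6 kappa, zeta, sigma and related genes, 3 were tested and 1 was called, *Gdap1l1*, lower in *KEAP1* KO #1 (−1.33). The 3 other MAPEG genes, *Ptges*, *Ltc4s* and *Alox5ap*, were all tested, and *Alox5ap*, the 5-lipoxygenase activating protein, was called lower in *KEAP1* KO #1 (−2.83) and #3 (−2.28) from a mean of 0.835 CPM for LL2 WT.

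Of 9 genes of glutathione supply, all tested, 5 were called higher in *KEAP1* KO #1 and 6 in #2 and in #3, and 0 were called in *NRF2* KO. They included *Gclc* and *Gclm*, the subunits of glutamate-cysteine ligase (log2 fold changes 3.31 to 3.53 and 2.81 to 3.3), the cystine transporter gene *Slc7a11* (2.29 to 4.67) and the reductase gene *Gsr* (1.18 to 1.3). Of 16 genes for export and processing of conjugates, 12 were tested, and 2, 5 and 8 were called higher in *KEAP1* KO #1, #2 and #3, with 0, 1 and 2 called lower. The shares of all genes in these lines were 4.55%, 5.94% and 6.09% called higher and 3.99%, 7.75% and 7.34% called lower. For *NRF2* KO they were 0.0887% and 0.375%. The exporter *Abcc4* (1.80 to 2.11) and the aminopeptidase *Anpep* (1.00 to 1.84) were called in all 3 lines. In *NRF2* KO 1 gene of this list was called, *Ggt1*, whose product opens the degradation of glutathione conjugates at the cell surface. *Ggt1* averaged 13.7 CPM for LL2 WT and 0.593 CPM for *NRF2* KO (log2 fold change −4.46, standard error 0.60, adjusted p = 0.00391), and 38.5, 41.1 and 58.0 CPM for *KEAP1* KO #1, #2 and #3, of which #2 (1.80, adjusted p = 0.0362) and #3 (2.28, 0.0116) were called.

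Sequence shared with other genes limits some of these values, because pseudo-alignment divides reads that fit more than 1 transcript. The share of 31-base transcript stretches found in another gene was 38.5% for *Gstp1*, 28.8% for *Gstm1*, about 12% for *Gstm2* and 11.1% for *Gstm5*, and at most 3.31% for the other 6. For *Gstm1* most of it was shared with *Gstm2-ps1* (22.6%), a pseudogene that averaged at most 0.0757 CPM in any line. *Mgst1* and *Gsto1* shared none.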

How the data were processed

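RNA sequencing of 5 LL2 lines with 3 samples each was analysed from 1 table. The authors deposited CPM values per gene. Their methods describe kallisto pseudo-alignment to the GRCm38.p6 transcriptome, whereas the submitters' processing notes name kallisto, bcl2fastq 1.9.0 and GRCm39, so the build of the table is uncertain. CPM summed to 998941 to 999306 per sample and were not whole multiples of a read, so the number of reads per sample is unknown. The 1 entry without a symbol (0.0214% to 0.0490% of CPM) was left out. No 2 samples held identical values (0 pairs).

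Genes with a summed CPM of at least 3 over the 15 samples (14652) were fitted as log2(CPM + 0.1) with 1 mean per line in limma 3.58.1 (R 4.3.3, eBayes with trend, Benjamini-Hochberg adjustment). These fold changes understate differences of genes near 0.1 CPM. P-values measure the spread between samples labelled biologic replicates, whose separate origin is not described. The limma fit was tested on simulated data with independent samples, which held no shared shift of replicate 3. Alternatives were other pseudocounts, filters, scalings, sample sets, a trend-free fit, replicate terms and leaving out each sample. Python 3.11.15, numpy 2.4.6, pandas 2.3.3 and matplotlib 3.10.9 were used.

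Positions, transcript lengths and 31-base stretches came from GENCODE M21 (GRCm38), promoters from RefSeq (GRCm38.p6), which matched all 10 genes. All members are named with values. From each list, genes called in a line were eligible to be named, and the 3 genes of highest Pearson r were named per member, apart from *Gstt1*, whose mean was under 1 CPM. Members and lists were chosen with earlier results of these data known. For 1 leukocyte marker, values are not reported here.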

Additional observations from a re-analysis of the deposited data

Results flagged for a closer look

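For 2 of the 10 genes the response differed between *KEAP1* KO clones by a direct test of the difference, by adjusted p and without reaching the fold required for a call. Both concerned #3 against #1, where 12.25% of all genes passed by adjusted p. For #2 against #1, 0 of 10 passed, where 11.1% of all genes did. *Gsto1* was higher in *KEAP1* KO #3 than in #1 by 0.67 on the log2 scale (standard error 0.166, limma adjusted p = 0.0188), with all 3 samples of #3 above all 3 of #1. Over 18 alternatives the adjusted p ranged from 0.000683 to 0.0780 and was below 0.05 in 14. *Mgst1* went the other way, with a difference of −0.69 (standard error 0.200, adjusted p = 0.0383) and all 3 samples of #3 below those of #1. Its adjusted p ranged from 0.00248 to 0.129 and was below 0.05 in 7 of 18.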

How the results depend on the processing

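Of 384 values computed with 1 sample left out, 342 kept their direction and side of the threshold, 19 lost and 10 gained a call and 13 changed sign. Of 764 values under other alternatives these counts were 739, 12, 7 and 6, and the cause of the changes was not tested. The count of genes called lower was 2 in *KEAP1* KO #1 with a replicate block or replicate 3 as a batch, 1 in *KEAP1* KO #2 after median-ratio rescaling, quantile normalization or with replicates 1 and 2 only, 1 in *KEAP1* KO #3 after quantile normalization or with replicates 1 and 2 only, and 1 in *NRF2* KO with only its own 2 lines in the model. With 1 sample left out these counts ranged from 0 to 1 in each *KEAP1* KO line and from 1 to 4 in *NRF2* KO, and the count called higher in *KEAP1* KO #2 from 1 to 4. Sign changes concerned values that were not called. Median-ratio rescaling gave *Gstm4* −0.0217 and *Mgst2* −0.0033 in *KEAP1* KO #1 and *Gsto1* −0.0086 in *NRF2* KO, and quantile normalization gave *Mgst2* −0.0226. Replicates 1 and 2 only, as well as the alternatives against *NRF2* KO, were chosen after seeing the data, and gave −0.0826 for *Gsto1* and −0.085 for *Mgst3* in *NRF2* KO. With 1 sample left out, *Gstm4* ranged from −0.18 to 0.39 in *KEAP1* KO #1 and from −0.48 to 0.12 in #3, *Mgst2* from −0.06 to 0.29 in #1, *Gstt1* from −0.0865 to 1.46 in #2 and from −1.0 to 0.63 in #3, *Gsto1* from −0.19 to 0.18 and *Mgst3* from −0.22 to 0.40 in *NRF2* KO, and *Mgst2* from −0.0494 to 0.13 between *KEAP1* KO #3 and #2.

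Deviations of same-numbered samples from their line means had a median correlation of 0.276 over 30 pairs, against −0.192 over 60 pairs of different number, and all 3 numbers exceeded 0.1 in 2 of 10 pairs of lines, so the numbers were not taken to pair the samples. Replicate 3 samples alone correlated at 0.422 or more. With the replicate block *Gstt1* was called lower in *KEAP1* KO #1 (−1.24, adjusted p = 0.0123, limma). Under the same block 1 of the 10 genes each was called for *KEAP1* KO #2 and #3 against #1, beside 903 and 893 of all 14652 genes. Replicate 3 as a batch gave 1 of 10 for #2 against #1, beside 893 of 14652. Low levels limit *Gstt1* (0.0783 to 0.942 CPM) and *Mgst1* (0.115 to 0.286 CPM) in *NRF2* KO, and the depth of each sample is unknown.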
